A study of Homo sapiens with 6 samples.

Results

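The genes described here make, import and export cholesterol. Cells build cholesterol from acetyl-CoA through mevalonate, isoprenoid diphosphates, squalene and lanosterol. Transcription of most of these enzymes is driven by SREBP2, a membrane-bound factor that SCAP carries out of the endoplasmic reticulum when sterols are scarce and that the INSIG proteins hold back when sterols are plentiful. Oxysterols activate the nuclear receptor LXR, which induces efflux transporters and MYLIP, a ligase that marks lipoprotein receptors for degradation. The liver makes cholesterol and is the main site of its clearance from the body.

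The module held 31 listed genes: 19 synthesis enzymes and 12 genes of SREBP2 control, uptake, transport, esterification and efflux. They were chosen by symbol for their known roles, with earlier results of these data known. Their shares and medians beside those of all genes are therefore descriptions and not an independent test. The list does not hold every gene of the pathway, and some genes outside it are described as separate lists after the members. In the platform annotation 30 of the 31 genes had a probe, 42 probes in all out of 47323. FDFT1, squalene synthase, had no probe under its symbol.

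By the labels, RNA came from Huh7, an established human hepatocellular carcinoma line, and each of the 6 samples was hybridised to an Illumina expression beadchip. The 3 sorafenib samples had been exposed for 24 h to this oral inhibitor of RAF kinases and growth factor receptors, at a concentration the labels give as 3 mM, a unit that could not be checked here and may not be the one meant, and the 3 DMSO samples for 24 h to the solvent alone. Nothing in the labels says that the samples of a group were separate cultures, and the p-values therefore reflect the spread among these arrays alone, possibly a technical one. For each sample 2 sets of values were deposited: raw probe signals and normalized values.

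The 2 sets did not hold the same arrays. Spearman's correlation between a sample's own columns in the 2 sets, across probes that are not independent replicates, was 0.848 to 0.863, and between columns of different samples 0.846 to 0.863. The raw set is named signal arrays here and the normalized set value-table arrays. Each was normalized and tested apart, and which of them came from the labelled line was not settled. The signal arrays had median signals of 120.2 to 144.5 and 16476 to 17476 detected probes. All 8 hepatocyte and liver cancer markers, among them ALB and AFP, were detected on every array of both sets, at levels far apart between them. On the value-table arrays, detected means above 7.40, a level taken from the signal arrays, and not a detection p-value. ALB averaged 15.23 with sorafenib and 15.22 with DMSO on the signal arrays, and 12.35 and 12.31 on the value-table arrays. FGB averaged 6.72 with sorafenib and 6.31 with DMSO, near the detection levels of 5.98 to 6.18, and 14.46 and 14.49 on the value-table arrays. TTR was also lower and AHSG higher on the signal arrays. Of other cell types, on the signal arrays 0 of 4 endothelial markers, 2 of 6 fibroblast and smooth muscle markers (ACTA2 and PDGFRB) and 3 of 5 immune markers (CD68, LYZ and CD14) were detected on 3 or more arrays. On the value-table arrays the counts were 1 (PECAM1), 0 and 3, and COL1A1, PTPRC and CD3E were undetected on every array of both sets. ACTA2 was the brightest of the fibroblast and smooth muscle markers on the signal arrays (13.58 with sorafenib and 12.93 with DMSO), while PDGFRB went the other way (5.24 and 6.40) and the other 4 were undetected. ACTA2 was undetected on the value-table arrays. The summed level of 6 fibroblast and smooth muscle markers was 11489 to 13266 on sorafenib signal arrays and 7959 to 8058 on DMSO signal arrays (850 to 879 and 850 to 932 on the value-table arrays). LYZ was the brightest immune marker (12.65 with sorafenib and 13.47 with DMSO), CD68 was nearly level (10.05 and 10.03), and CD14 did not pass. The sum of the 5 immune markers was 7468 to 8296 with sorafenib and 12072 to 14217 with DMSO (5805 to 8468 and 11922 to 13477 on the value-table arrays). The 4 endothelial markers summed to 122 to 131 with sorafenib and 118 to 130 with DMSO (838 to 975 and 977 to 1260 on the value-table arrays). The part of these lists in the results below was not tested.

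On the signal arrays, 18 of the 28 members tested rose with sorafenib and none fell, against 16.8% of all 10523 genes tested that rose and 14.2% that fell (limma, Benjamini-Hochberg adjusted p under 0.05 over all probes). In the other settings run on the signal arrays the count that fell was also 0, and at an unadjusted p under 0.05 INSIG1 and INSIG2 were lower. The members' median log2 change, sorafenib minus DMSO, was 0.44, beside 0.00 over all genes tested. In such bulk RNA, a change in the number of cells that express a gene and a change in its RNA per cell cannot be told apart. The 3 sorafenib arrays lay above the 3 DMSO arrays for 19 members and below them for 2, beside 24.6% and 22.8% of all genes. On the value-table arrays 9 of 29 members tested rose and none fell, against 11.3% and 8.17% of 10595 genes, with a median log2 change of 0.24 beside 0.01 over all genes. That median was 0.15 without sorafenib replicate 3 and 0.34 without sorafenib replicate 2. At an unadjusted p under 0.05 no member was lower there. The 3 sorafenib arrays lay above the 3 DMSO arrays for 15 members and below them for none, beside 21.7% and 18.1% of all genes. With the replicate number as a block, 20 members rose on the signal arrays and 17 on the value-table arrays. The value-table count was 4 without sorafenib replicate 1 or without DMSO replicate 1, 5 without sorafenib replicate 3 or without DMSO replicate 2, and 8 to 11 without the other arrays. The probe that stands for each member tested had been detected in both groups, so none of these probes entered the tests through 1 group alone.

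On the signal arrays 15 of 18 synthesis enzymes tested rose, with a median log2 change of 0.55, and 3 of the 10 other members tested did, with a median of 0.08. Among the value-table arrays 7 of 18 enzymes rose (median 0.29) and 2 of 11 other members (median 0.11). The values of every array, set against the DMSO mean of each gene, show the enzymes in the upper part of the plot and the control, transport and efflux genes below. Across same-numbered samples, 17 of 18 enzymes were higher with sorafenib in 3 of 3 pairs on the signal arrays, beside 34.1% of all genes, and 14 of 18 on the value-table arrays, beside 32.7%.

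**Figure D1:**
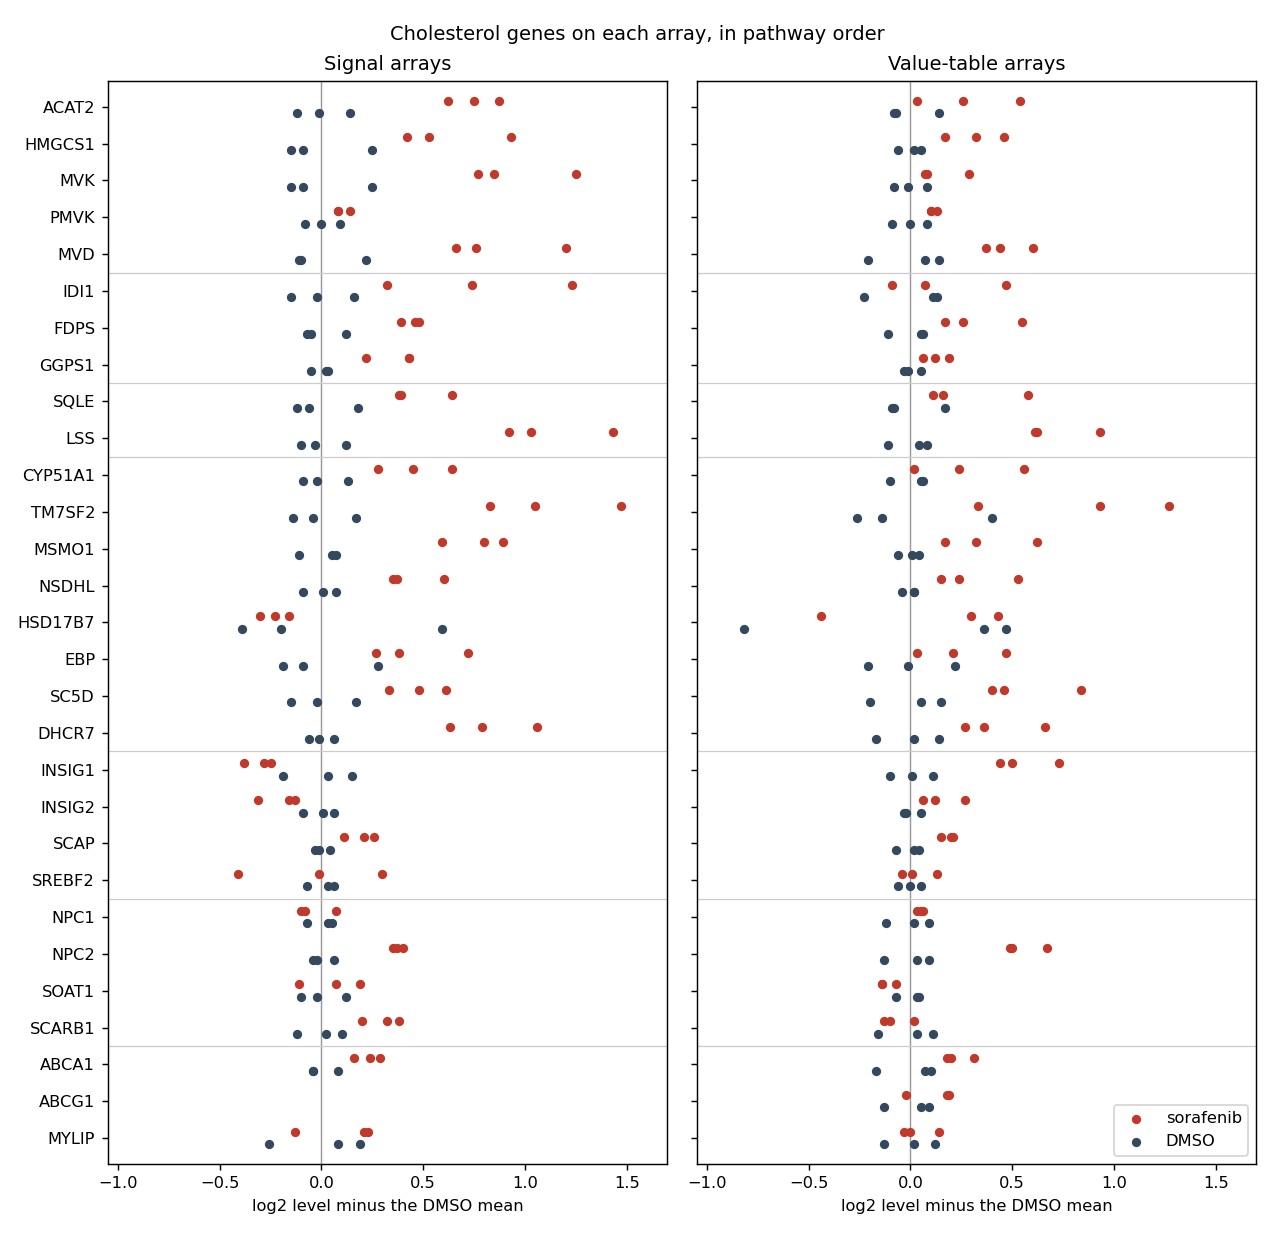
Log2 level of each tested member on every array minus the mean of the 3 DMSO arrays, on the signal arrays (left) and the value-table arrays (right), with genes in pathway order from top to bottom and lines between roles. Red points are sorafenib arrays and dark points DMSO arrays. On the signal arrays, the 3 red points lie above the 3 dark points for 19 members and below them for INSIG1 and INSIG2.

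Promoter sequences are shown for LSS, TM7SF2, MSMO1 and MVD, enzymes that rose in both sets, and for SREBF2 and INSIG1, regulators of the same pathway that did not rise on the signal arrays. SREBP factors bind sterol response elements and usually act beside NF-Y, which binds CCAAT boxes. Each window runs from 250 bases before to 50 bases after the start site, taken from RefSeq (GRCh38.p14) and written in the direction of the gene. Capitals mark matches, on either strand, to TCACNCCAC, the core of a sterol response element, and to CCAAT, which reads ATTGG on the other strand. No 2 marked matches overlap in these windows.
LSS promoter, chr21:46228725-46229024, minus strand: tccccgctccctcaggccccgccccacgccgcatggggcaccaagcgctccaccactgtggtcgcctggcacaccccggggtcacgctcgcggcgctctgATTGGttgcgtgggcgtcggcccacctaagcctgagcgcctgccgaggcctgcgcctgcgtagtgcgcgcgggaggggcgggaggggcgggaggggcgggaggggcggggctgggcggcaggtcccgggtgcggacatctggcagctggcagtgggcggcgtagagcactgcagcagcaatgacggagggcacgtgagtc
TM7SF2 promoter, chr11:65111622-65111921, plus strand: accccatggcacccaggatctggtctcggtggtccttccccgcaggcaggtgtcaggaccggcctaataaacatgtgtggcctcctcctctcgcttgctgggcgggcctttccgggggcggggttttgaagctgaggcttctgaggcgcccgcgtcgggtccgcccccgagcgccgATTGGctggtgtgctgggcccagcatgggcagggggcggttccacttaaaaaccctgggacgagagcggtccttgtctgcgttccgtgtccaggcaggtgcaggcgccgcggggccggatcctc
MSMO1 promoter, chr4:165327419-165327718, plus strand: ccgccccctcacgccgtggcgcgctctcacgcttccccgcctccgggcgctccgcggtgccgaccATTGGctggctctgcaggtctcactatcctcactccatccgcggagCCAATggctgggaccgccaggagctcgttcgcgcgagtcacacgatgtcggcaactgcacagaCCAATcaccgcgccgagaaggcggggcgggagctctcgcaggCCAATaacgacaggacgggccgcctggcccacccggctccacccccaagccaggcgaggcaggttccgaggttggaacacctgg
MVD promoter, chr16:88663042-88663341, minus strand: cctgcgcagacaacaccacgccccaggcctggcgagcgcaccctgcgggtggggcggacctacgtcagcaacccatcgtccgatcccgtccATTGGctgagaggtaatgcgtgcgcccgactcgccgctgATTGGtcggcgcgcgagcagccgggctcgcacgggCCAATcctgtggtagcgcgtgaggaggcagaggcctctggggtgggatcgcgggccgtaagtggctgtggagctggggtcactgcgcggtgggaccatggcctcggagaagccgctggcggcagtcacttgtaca
SREBF2 promoter, chr22:41832855-41833154, plus strand: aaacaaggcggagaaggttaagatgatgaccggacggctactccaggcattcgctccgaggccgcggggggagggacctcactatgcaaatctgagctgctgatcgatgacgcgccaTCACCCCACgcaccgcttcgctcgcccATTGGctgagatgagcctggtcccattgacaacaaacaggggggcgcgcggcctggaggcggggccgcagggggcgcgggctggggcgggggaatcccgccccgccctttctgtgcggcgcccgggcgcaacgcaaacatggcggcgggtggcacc
INSIG1 promoter, chr7:155297628-155297927, plus strand: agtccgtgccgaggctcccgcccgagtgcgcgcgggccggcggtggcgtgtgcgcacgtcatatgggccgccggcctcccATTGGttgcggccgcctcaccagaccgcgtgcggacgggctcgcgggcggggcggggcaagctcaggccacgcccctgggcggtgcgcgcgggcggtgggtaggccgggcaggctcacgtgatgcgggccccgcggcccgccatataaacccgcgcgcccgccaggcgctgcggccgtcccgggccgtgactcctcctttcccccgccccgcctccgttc

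Of the 31 members, 26 had a RefSeq window. The sterol element core was found in 1 of them, SREBF2, and in 1.39% of 27305 genes. CCAAT was found in 20 of the 26 (76.9%), against 39.7% of all genes, and at least 2 matches in 13 of the 26, against 12.9%. The MSMO1 window held 4 CCAAT matches, that of MVD 3, and those of LSS, TM7SF2, SREBF2 and INSIG1 1 each. The motifs were chosen with the expression results known. A match is a description of letters and not a binding site, and other forms of the sterol element were not searched.

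The early enzymes build mevalonate from acetyl-CoA and phosphorylate it, and 4 of the 5 rose on the signal arrays. ACAT2 joins acetyl-CoA units in the cytosol. It had log2 levels of 14.07, 14.20 and 14.32 on the sorafenib arrays, against 13.33, 13.44 and 13.59 on the DMSO arrays, a 1.67-fold rise (log2 change 0.74, SE 0.08, limma adjusted p = 0.000265). A dimmer ACAT2 probe, detected on 2 of 3 DMSO arrays, also rose (log2 change 0.59). HMGCS1, the synthase that makes HMG-CoA, had 13.10, 12.99 and 13.50 with sorafenib, against 12.48, 12.42 and 12.82 with DMSO, and rose 1.54-fold (adjusted p = 0.00928). No sorafenib array of either gene overlapped a DMSO array.

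Mevalonate is phosphorylated first by MVK and then by PMVK, and MVD turns the product into isopentenyl diphosphate. MVK had 8.96, 9.04 and 9.44 with sorafenib, against 8.10, 8.04 and 8.44 with DMSO, and rose 1.93-fold (log2 change 0.95, SE 0.15, adjusted p = 0.0019). MVD had 10.37, 10.47 and 10.91 with sorafenib, against 9.61, 9.60 and 9.93 with DMSO, and rose 1.83-fold (adjusted p = 0.00229). PMVK, between them in the pathway, had 9.71, 9.71 and 9.77 with sorafenib, against 9.55, 9.63 and 9.72 with DMSO. Its arrays overlapped, its log2 change was 0.10 (95% interval -0.08 to 0.28, adjusted p = 0.399), and it passed in none of 16 other settings. On the signal arrays the upper end of that interval lies under the lower ends of the intervals of MVK (0.61) and MVD (0.55).

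HMGCS1 and MVD also rose on the value-table arrays, and the other 3 early enzymes did not pass. HMGCS1 had 14.45, 14.30 and 14.59 with sorafenib, against 14.07, 14.15 and 14.18 with DMSO (log2 change 0.31, adjusted p = 0.022). MVD had 10.94, 10.87 and 11.10 with sorafenib, against 10.64, 10.29 and 10.57 with DMSO (log2 change 0.47, adjusted p = 0.0159). The groups did not overlap for either. The call of HMGCS1 was lost without sorafenib replicate 1 or 3 or DMSO replicate 1 or 2 (log2 change 0.24 to 0.32, adjusted p = 0.0505 to 0.0773) and that of MVD without sorafenib replicate 1 (0.48, adjusted p = 0.0501). MVK had 9.13, 9.12 and 9.34 with sorafenib, against 9.13, 8.97 and 9.04 with DMSO, a log2 change of 0.15 (95% interval -0.06 to 0.36, adjusted p = 0.299). ACAT2 had 13.46, 13.23 and 13.74 with sorafenib, against 13.13, 13.12 and 13.34 with DMSO, and its groups overlapped. The log2 change of ACAT2 was 0.28 (adjusted p = 0.14, and 0.00247 with the replicate block). It was 0.40 without sorafenib replicate 2 (adjusted p = 0.0483) and 0.15 without sorafenib replicate 3 (adjusted p = 0.344). PMVK had a log2 change of 0.11 (95% interval -0.05 to 0.27, adjusted p = 0.313), and its interval overlaps that of MVK in this set. Every sorafenib array of PMVK lay above every DMSO array there.

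The isoprenoid enzymes IDI1, FDPS and GGPS1 all rose on the signal arrays. IDI1 interconverts the isopentenyl units that are joined into longer chains. It had 9.86, 9.44 and 10.35 with sorafenib, against 9.10, 8.97 and 9.28 with DMSO, a 1.7-fold rise with the widest spread among sorafenib arrays of any synthesis enzyme (SD 0.46, adjusted p = 0.0168). FDPS makes farnesyl diphosphate, which feeds both sterols and protein prenylation. It had 9.88, 9.97 and 9.95 with sorafenib, against 9.61, 9.44 and 9.42 with DMSO (log2 change 0.44, adjusted p = 0.00442). GGPS1, which makes the geranylgeranyl donor of protein prenylation and lies off the sterol branch, had a log2 change of 0.36 (adjusted p = 0.00797). The call of IDI1 was lost without DMSO replicate 2 (0.69, adjusted p = 0.0702), and those of FDPS and GGPS1 under median scaling (adjusted p = 0.0647 and 0.168). None of the 3 passed on the value-table arrays. IDI1 had 9.60, 9.44 and 10.00 with sorafenib, against 9.66, 9.30 and 9.64 with DMSO, and its groups overlapped (log2 change 0.15, and -0.01 to 0.27 over the other settings). The changes of FDPS and GGPS1 were 0.32 and 0.12. With the replicate block FDPS passed there (adjusted p = 0.00246), and without sorafenib replicate 3 its change was 0.21.

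Squalene is oxidised by SQLE and closed into the first sterol, lanosterol, by LSS. LSS had the largest change of the members on the signal arrays, with 12.65, 12.76 and 13.16 on sorafenib arrays, against 11.63, 11.70 and 11.85 on DMSO arrays. This was a 2.19-fold rise (log2 change 1.13, SE 0.12, adjusted p = 0.000194), and no arrays overlapped. Another LSS probe (ILMN_1687863), detected on all 6 arrays, also rose (log2 change 1.15, adjusted p = 0.00166). The remaining LSS probe (ILMN_1658271) was detected on 3 sorafenib arrays and on no DMSO array, at least 2.16-fold higher with the array's detection level as the floor. It passed the filter through the sorafenib arrays alone, so it had to differ and supports nothing. SQLE had 13.39, 13.38 and 13.64 with sorafenib, against 12.88, 12.94 and 13.18 with DMSO, and rose 1.38-fold (adjusted p = 0.00613). Its second probe rose alike, by 0.55 on the log2 scale.

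LSS also rose on the value-table arrays, and was the enzyme whose call there held in all 13 other settings. It had 12.26, 12.25 and 12.57 with sorafenib, against 11.68, 11.53 and 11.72 with DMSO, a 1.65-fold rise (log2 change 0.72, SE 0.10, adjusted p = 0.00238). SQLE overlapped there, with 12.78, 12.83 and 13.25 with sorafenib, against 12.59, 12.84 and 12.58 with DMSO. Its log2 change was 0.29 (adjusted p = 0.144, and 0.0233 with the replicate block), and 0.14 without sorafenib replicate 3.

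Of the 8 enzymes that convert lanosterol to cholesterol, 6 rose on the signal arrays and 4 on the value-table arrays. CYP51A1, the demethylase that acts on lanosterol, had 8.97, 8.61 and 8.78 with sorafenib, against 8.24, 8.31 and 8.46 with DMSO (log2 change 0.45, adjusted p = 0.02). Its call was lost under median scaling and without sorafenib replicate 1 or DMSO replicate 1 or 2 (log2 change 0.36 to 0.46, adjusted p = 0.0542 to 0.0728). Its value-table levels were 9.02, 8.80 and 9.34 with sorafenib, against 8.84, 8.68 and 8.83 with DMSO, with overlap between the groups. The log2 change was 0.27 (adjusted p = 0.19, and 0.0256 with the replicate block), and 0.13 without sorafenib replicate 3.

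TM7SF2 is a sterol reductase of the endoplasmic reticulum that acts on the product of CYP51A1. It had 11.73, 11.95 and 12.37 with sorafenib, against 10.76, 10.86 and 11.07 with DMSO, and rose 2.18-fold on the signal arrays (log2 change 1.12, SE 0.15, adjusted p = 0.00063). It had the largest log2 change of the members on the value-table arrays, 0.84 (SE 0.23, adjusted p = 0.0378), but also a wide spread. The values there were 10.25, 9.65 and 10.59 with sorafenib, against 9.18, 9.06 and 9.72 with DMSO, so that 1 sorafenib array lay below 1 DMSO array. This value-table call was lost without sorafenib replicate 1 or 3 or DMSO replicate 1 or 2 (log2 change 0.62 to 0.80, adjusted p = 0.0929 to 0.115).

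MSMO1 and NSDHL remove methyl groups from the sterol nucleus. MSMO1 had 12.51, 12.30 and 12.60 with sorafenib, against 11.78, 11.60 and 11.76 with DMSO, on the signal arrays, and rose 1.69-fold (adjusted p = 0.000304). A second MSMO1 probe (ILMN_1689842) had a log2 change of 1.14 and the remaining one (ILMN_2402499) a change of 0.04 (95% interval -0.25 to 0.34, adjusted p = 0.849). That probe stood apart on the value-table arrays, with a log2 change of 0.05, beside 0.47 and 0.37 for the other 2, which both passed. The brightest probe had 13.12, 12.97 and 13.42 with sorafenib there, against 12.74, 12.84 and 12.81 with DMSO, and its groups did not overlap. Its call was lost without the intensity trend and without any 1 of 5 arrays, all but sorafenib replicate 2 (log2 change 0.25 to 0.40). NSDHL had 12.04, 12.06 and 12.29 with sorafenib, against 11.60, 11.70 and 11.76 with DMSO, and rose 1.36-fold on the signal arrays (adjusted p = 0.00416). Its value-table levels were 11.65, 11.56 and 11.94 with sorafenib, against 11.43, 11.37 and 11.43 with DMSO. These groups did not overlap but it missed the threshold (log2 change 0.30, adjusted p = 0.0538, and 0.00289 with the replicate block). The change was 0.38 without sorafenib replicate 2 (adjusted p = 0.0455) and 0.19 without sorafenib replicate 3.

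**Figure D2:**
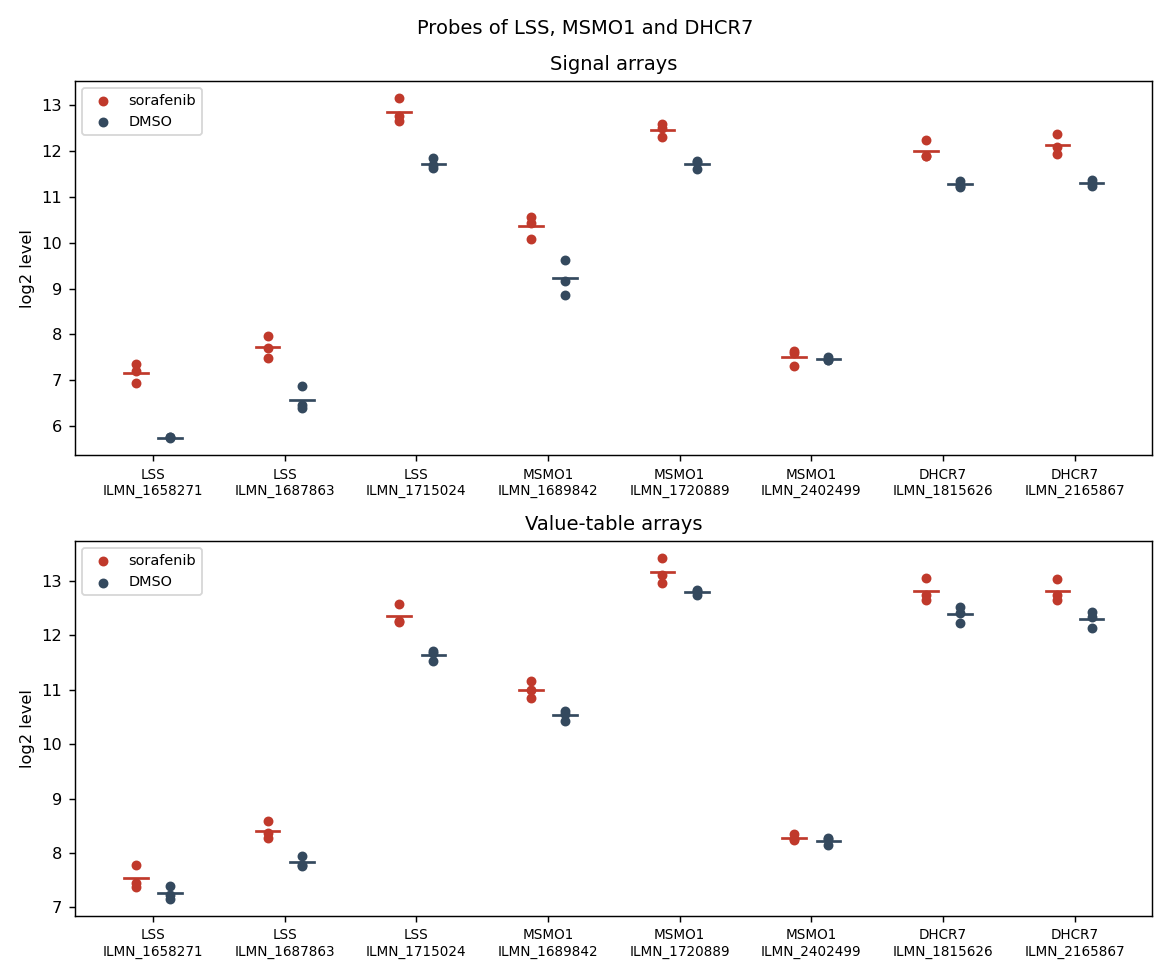
Log2 level of every probe of LSS, MSMO1 and DHCR7 on the signal arrays (top) and the value-table arrays (bottom), with 3 sorafenib arrays in red, 3 DMSO arrays in dark and bars at the group means. In both sets the MSMO1 probe ILMN_2402499 has nearly equal means, 0.04 and 0.05 apart, while the other MSMO1 probes were higher with sorafenib.

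SC5D and DHCR7 act at the end of the pathway, and both rose in both sets. SC5D had 12.93, 13.08 and 13.21 with sorafenib, against 12.45, 12.58 and 12.77 with DMSO, on the signal arrays (log2 change 0.47, adjusted p = 0.00616). Its value-table levels were 12.56, 12.50 and 12.94 with sorafenib, against 11.90, 12.15 and 12.25 with DMSO (log2 change 0.57, adjusted p = 0.0152). The groups did not overlap in either set, and the second call was lost without DMSO replicate 1 (0.47, adjusted p = 0.0525).

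DHCR7 had 11.94, 12.10 and 12.37 with sorafenib, against 11.30, 11.25 and 11.37 with DMSO, on the signal arrays, and rose 1.78-fold (log2 change 0.83, SE 0.10, adjusted p = 0.000418). Both its probes rose in both sets, and the brighter one differed between the sets. The brighter value-table probe had 12.75, 12.66 and 13.05 with sorafenib, against 12.41, 12.22 and 12.53 with DMSO (log2 change 0.43, adjusted p = 0.0271). That call was lost without sorafenib replicate 1 or 3 or DMSO replicate 1 or 2 (0.32 to 0.47, adjusted p = 0.0587 to 0.0807).

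HSD17B7 and EBP did not pass in either set. HSD17B7, a ketoreductase that works with NSDHL, had 10.82, 10.75 and 10.89 with sorafenib, against 11.64, 10.85 and 10.66 with DMSO, on the signal arrays. DMSO replicate 1 stood far above its group there, and without it the log2 change was 0.06 in place of -0.23. In the value table it had 10.48, 10.61 and 9.74 with sorafenib, against 10.54, 10.65 and 9.36 with DMSO, so that replicate 3 was low in both groups. The 95% interval of its change was -0.69 to 0.22 on the signal arrays and -0.65 to 0.83 on the value-table arrays. The enzymes' median on the signal arrays, 0.55, lies outside the first interval, which includes the outlying DMSO replicate 1. Their median on the value-table arrays, 0.29, lies inside the second.

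EBP, a sterol isomerase, had 8.09, 8.20 and 8.54 with sorafenib, against 7.63, 7.73 and 8.10 with DMSO, on the signal arrays. The groups overlapped by a single pair of arrays, and the log2 change of 0.46 missed the threshold (adjusted p = 0.0622). Each sorafenib array was above the DMSO array of the same number, and with the replicate block EBP passed (adjusted p = 0.00341), as it did with array weights (0.0188) and without DMSO replicate 3 (log2 change 0.60, adjusted p = 0.0188). Its change on the value-table arrays was 0.24 on the log2 scale (adjusted p = 0.24, and 0.00272 with the block), and 0.12 without sorafenib replicate 3.

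**Figure D3:**
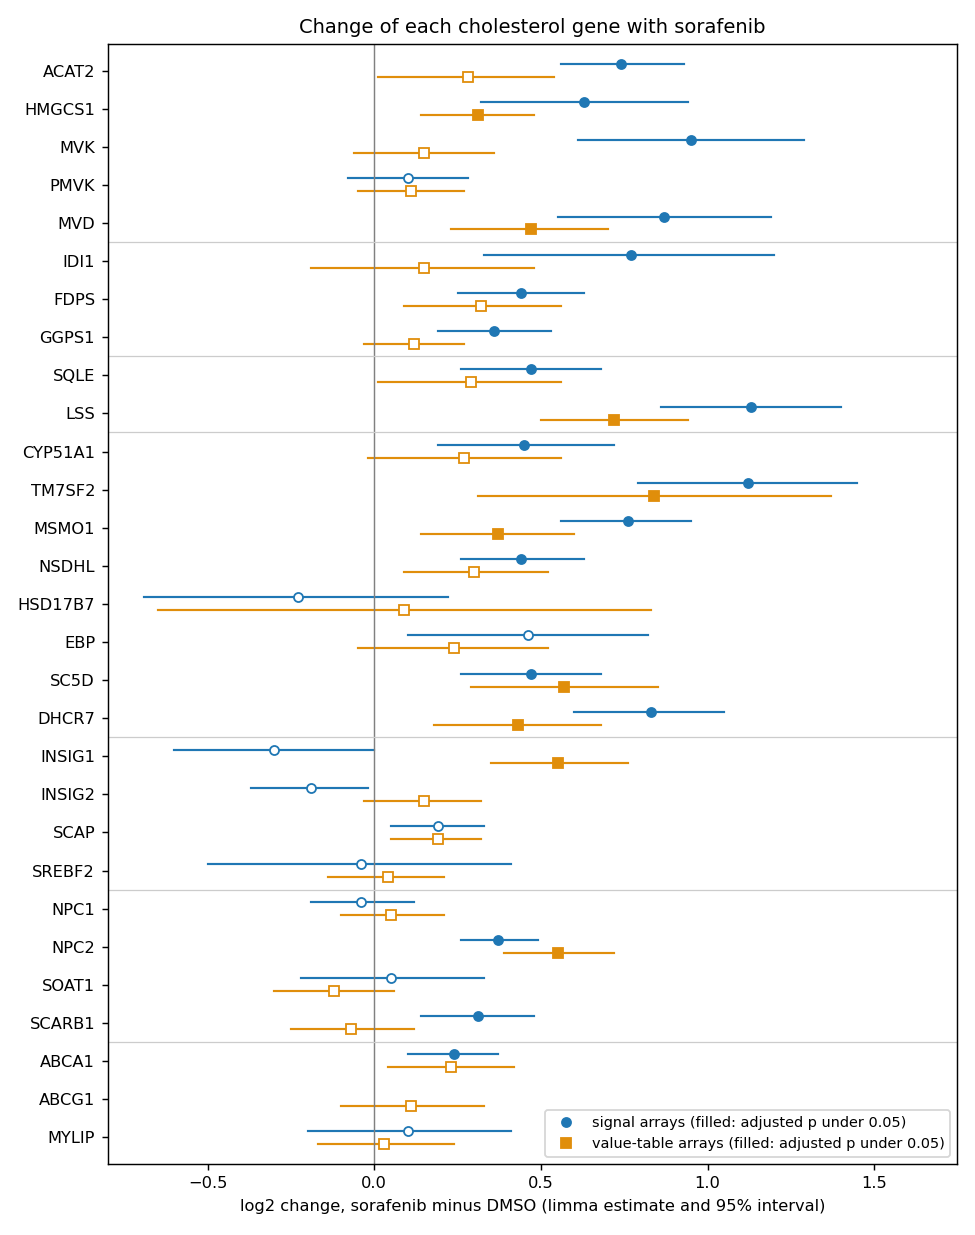
Log2 change of each tested member, sorafenib minus DMSO, with its 95% interval from limma, for the signal arrays (circles) and the value-table arrays (squares), filled where the adjusted p was under 0.05. In both sets LSS and TM7SF2 lie farthest to the right, and INSIG1 lies at -0.30 on the signal arrays and 0.55 on the value-table arrays.

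None of the 4 genes of SREBP2 control rose or fell on the signal arrays. SREBF2, which encodes SREBP2, lay near the detection levels of 5.98 to 6.18, with 6.35, 6.66 and 5.95 with sorafenib, against 6.29, 6.39 and 6.42 with DMSO, so its log2 change of -0.04 is poorly measured (95% interval -0.50 to 0.41). Its value-table change was 0.04 (95% interval -0.14 to 0.21). SCAP, the escort protein of SREBP2, had 12.00, 12.10 and 12.15 with sorafenib, against 11.93, 11.86 and 11.88 with DMSO. Its arrays did not overlap in either set and its log2 change was 0.19 in both, just short of the threshold (adjusted p = 0.0523 and 0.063). With the replicate block SCAP passed in both sets (adjusted p = 0.0256 and 0.0222). It passed in 6 of 16 other settings of the signal arrays, with adjusted p from 0.0178 to 0.0495, among them the one without sorafenib replicate 1 (log2 change 0.23).

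INSIG1 retains SCAP in the endoplasmic reticulum and is itself a known target of SREBP2. It had signal-array levels of 7.25, 7.38 and 7.35 with sorafenib, against 7.66, 7.44 and 7.78 with DMSO, so every sorafenib array was lower. Its log2 change of -0.30 missed the threshold (95% interval -0.60 to 0.00, adjusted p = 0.125, and 0.0776 with the replicate block). INSIG1 had value-table levels of 11.80, 11.74 and 12.03 with sorafenib, against 11.20, 11.31 and 11.41 with DMSO, and every sorafenib array was higher. There it rose 1.47-fold (log2 change 0.55, SE 0.09, adjusted p = 0.00481) and passed in 13 of 13 other settings. A second INSIG1 probe was undetected on the signal arrays and had a log2 change of 0.23 on the value-table arrays (adjusted p = 0.0817).

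INSIG2 is the second retention protein. It had 10.46, 10.49 and 10.31 with sorafenib, against 10.63, 10.53 and 10.68 with DMSO, on the signal arrays (log2 change -0.19, 95% interval -0.37 to -0.02, adjusted p = 0.0994). Its value-table levels were 10.15, 10.09 and 10.30 with sorafenib, against 10.00, 10.08 and 10.01 with DMSO (log2 change 0.15, adjusted p = 0.24). The groups did not overlap in either set, in opposite directions, and it passed in neither. The difference between the sets was not tested for either INSIG gene.

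**Figure D4:**
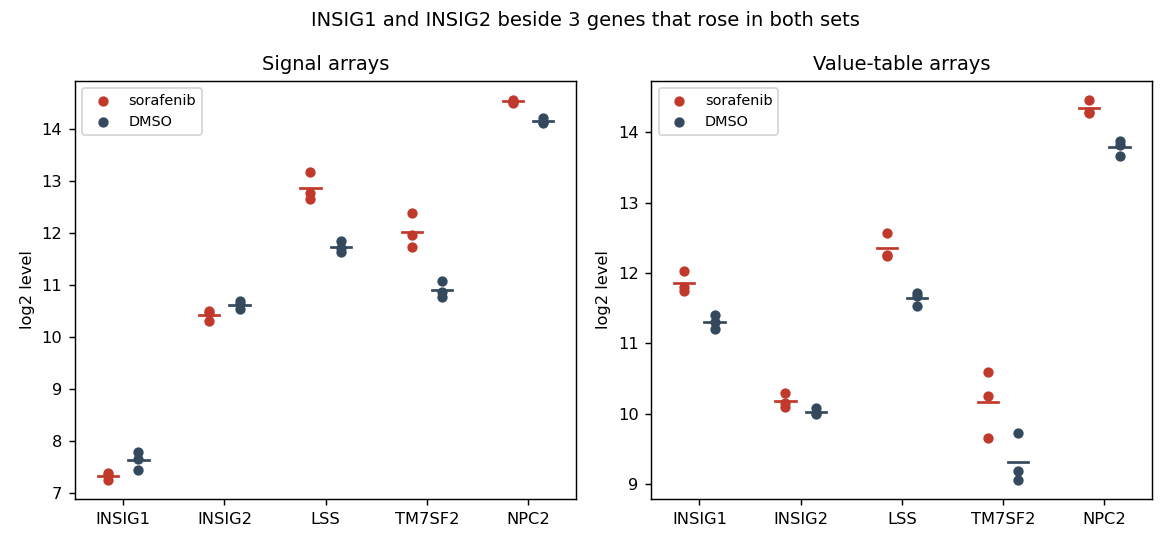
Log2 levels of INSIG1 and INSIG2 beside LSS, TM7SF2 and NPC2 on the signal arrays (left) and the value-table arrays (right), with 3 sorafenib arrays in red, 3 DMSO arrays in dark and bars at the group means. INSIG1 lies between 7.25 and 7.78 on the signal arrays, where the red points are the lower ones, and between 11.20 and 12.03 on the value-table arrays, where they are the higher ones.

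Levels of the same probe were set side by side in the 2 sets, with the signals taken without background correction. The median absolute difference was 0.46 log2 units over the 28 members and 0.39 over 19020 probes kept in either set. EBP and INSIG1 were the 2 members (7.14%) that differed by over 2 log2 units, as did 5.02% of the 19020 probes. EBP lay at 8.52 on the signal arrays and 13.28 on the value-table arrays, and INSIG1 at 8.13 and 11.58. These levels describe separately normalized values, and no difference between the sets was tested.

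**Figure D5:**
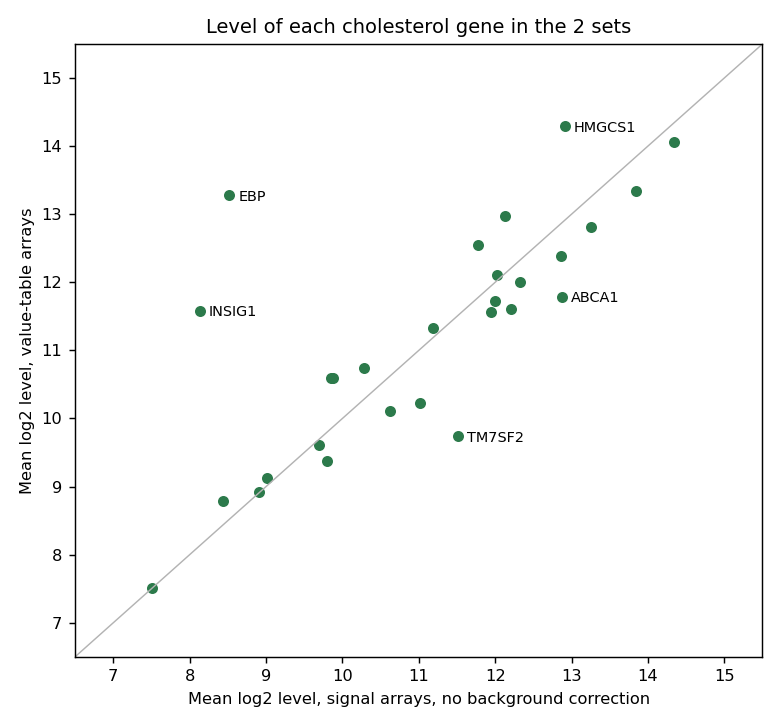
Mean log2 level over 6 arrays of the probe that stands for each member, on the signal arrays without background correction (horizontal) and on the value-table arrays (vertical), with the line of equal values. EBP (8.52 and 13.28) and INSIG1 (8.13 and 11.58) lie farthest above the line, and TM7SF2 (11.51 and 9.74) farthest below it.

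Among the genes of uptake, intracellular transport and esterification, NPC2 rose in both sets. NPC2 is the soluble lysosomal protein that hands cholesterol from digested lipoproteins to the membrane protein NPC1. It had 14.52, 14.50 and 14.55 with sorafenib, against 14.11, 14.21 and 14.13 with DMSO, on the signal arrays (log2 change 0.37, SE 0.05, adjusted p = 0.000888). Its levels in the value table were 14.29, 14.28 and 14.46 with sorafenib, against 13.66, 13.88 and 13.82 with DMSO (log2 change 0.55, SE 0.07, adjusted p = 0.00241). Both calls held in every other setting run within their set. NPC1 had log2 changes of -0.04 (95% interval -0.19 to 0.12) on the signal arrays and 0.05 (-0.10 to 0.21) on the value-table arrays. Both intervals of NPC1 lie below those of NPC2, which begin at 0.26 and 0.39.

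SCARB1, the receptor that takes up cholesteryl esters from high-density lipoprotein, rose on the signal arrays only in part of the settings. It had 12.23, 12.35 and 12.41 with sorafenib, against 11.91, 12.05 and 12.13 with DMSO (log2 change 0.31, adjusted p = 0.0156). The call was lost under median scaling (0.28, adjusted p = 0.212), without the intensity trend and without sorafenib replicate 2 or 3 or DMSO replicate 2 (0.27 to 0.32). Its value-table log2 change was -0.07 (95% interval -0.25 to 0.12). SOAT1, which esterifies cholesterol for storage, had log2 changes of 0.05 and -0.12 in the 2 sets and passed in neither. STARD4, a cytosolic sterol carrier, was detected on none of the 6 signal arrays, lay under the filter's level in the value table and was not tested.

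ABCA1, the transporter that loads cholesterol onto apolipoprotein A-I, rose by a small amount on the signal arrays. It had 12.90, 12.98 and 13.03 with sorafenib, against 12.70, 12.70 and 12.82 with DMSO, a 1.18-fold rise (log2 change 0.24, adjusted p = 0.0206). This call was lost in 6 of 16 other settings: median scaling (adjusted p = 0.347), no intensity trend, and without sorafenib replicate 2 or 3 or DMSO replicate 1 or 2 (log2 change 0.21 to 0.23). The value-table change was 0.23 (adjusted p = 0.0947, and 0.00974 with the replicate block), and 0.14 without DMSO replicate 1. ABCG1, a second efflux transporter, was detected on at most 1 signal array by any of its 5 probes. Its 1 kept value-table probe had a log2 change of 0.11 (95% interval -0.10 to 0.33). MYLIP had log2 changes of 0.10 and 0.03 and passed in neither set.

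Of the 28 members tested in both sets, 8 rose in both: HMGCS1, MVD, LSS, TM7SF2, MSMO1, SC5D, DHCR7 and NPC2. A further 10 rose on the signal arrays alone and INSIG1 on the value-table arrays alone, 9 passed in neither, and none passed in opposite directions. Of all genes tested, 16.8% rose on the signal arrays and 11.3% on the value-table arrays. The share of all genes that rose in both sets was not computed, so the count of 8 has no such share beside it. Of the 19 that rose in either set, 16 had the larger estimate on the signal arrays, and SC5D, NPC2 and INSIG1 on the value-table arrays. Most of the 19 were counted because they passed on the signal arrays, a choice that favours larger estimates there. The signals were also background-corrected, while the value table has no stated background step. The part of either in this count was not tested. Passing in one set and not in the other does not show that a member's response differed, and that difference was not tested.

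Replicates of the same number moved together for these genes. Replicate 3 was the highest of its group with both sorafenib and DMSO for 13 of the 18 enzymes on the signal arrays, beside 21.6% of all genes tested. The same held on the value-table arrays for 8 of 18 enzymes, beside 22.8% of all genes. This count was made after the values were seen.

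The branches beside the sterol pathway were described from 5 lists of other genes, whose counts stand beside 16.8% of all genes that rose and 14.2% that fell on the signal arrays, and 11.3% and 8.17% on the value-table arrays. Of 13 genes tested for the isoprenoid branch and acetoacetyl-CoA, which includes the protein prenylation enzymes, ACAT1 rose and 4 fell on the signal arrays (median log2 change -0.19). The 4 were ZMPSTE24, the protease that trims prenylated proteins (log2 change -0.43), PDSS1, which makes the tail of coenzyme Q (-0.36), ICMT, which methylates prenylated proteins (-0.34), and RABGGTB, a subunit of Rab geranylgeranyl transferase (-0.33). ACAT1 again rose on the value-table arrays and PDSS1 fell (-0.29, adjusted p = 0.0149), a call lost without sorafenib replicate 1 (-0.28) or DMSO replicate 1 (-0.27). The change of ICMT was -0.33 there (adjusted p = 0.0556, and 0.00124 with the replicate block). ZMPSTE24 and RABGGTB had value-table changes of -0.09 and -0.05 (adjusted p = 0.679 and 0.624), and the median of the list was -0.03. The calls of PDSS1 and ICMT on the signal arrays were lost under median scaling (adjusted p = 0.0793 and 0.159) and without DMSO replicate 2 (log2 change -0.34 and -0.32), and that of PDSS1 also without sorafenib replicate 2 (-0.34).

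Of 8 genes tested for SREBP processing, sterol-regulated degradation and other SREBP targets, 1 rose and 1 fell on the signal arrays, shares near those of all genes. TMEM97, a sterol-responsive membrane protein, rose (log2 change 0.54, adjusted p = 0.00195). SREBF1, the gene of the related factor SREBP1, fell (-0.42, adjusted p = 0.0077), a call lost under median scaling (adjusted p = 0.078). TMEM97's call was lost with the mean of its probes (0.13, adjusted p = 0.175). TMEM97 had a value-table change of 0.36 (adjusted p = 0.0477), lost in 9 of 13 other settings. Without sorafenib replicate 3 it was 0.21. SREBF1 had a value-table change of -0.13 (adjusted p = 0.418), and ERLIN2 also rose there.

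Of 14 genes tested for other sterol uptake, esterification and transport, 3 rose (VLDLR, LCAT and NPC1L1) and 2 fell (LRP8 and NCEH1) on the signal arrays, again near the shares of all genes. Of the same genes, 4 rose on the value-table arrays (VLDLR, OSBPL9, GRAMD1A and SOAT2) and LRP8 fell. VLDLR, a receptor for triglyceride-rich lipoproteins, rose in both sets (log2 change 0.96, SE 0.15, and 1.10, SE 0.09; adjusted p = 0.00185 and 0.000436). The related receptor LRP8 fell in both (-1.00, SE 0.09, and -0.41, SE 0.08; adjusted p = 8.58e-05 and 0.0114). These 4 calls held in every other setting run within their set. NCEH1, a cholesteryl ester hydrolase, fell on the signal arrays (-0.43, adjusted p = 0.0226) and LCAT, which esterifies cholesterol in plasma, rose (0.44, adjusted p = 0.0482), with value-table changes of -0.03 and 0.03. Without DMSO replicate 2 neither passed (-0.37 and 0.39), and LCAT did not without DMSO replicate 1 or sorafenib replicate 2 or 3 either (0.28 to 0.47). Both calls were also lost under median scaling (adjusted p = 0.0651 for NCEH1 and 0.0685 for LCAT) and without the intensity trend (0.0553 and 0.1), and that of LCAT without the filter on dim probes (0.0514).

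Of 9 genes tested for LXR, its partners and other LXR targets, 6 rose on the signal arrays and none fell (median log2 change 0.31). RXRA, the partner receptor of LXR, rose 1.66-fold (adjusted p = 0.000466), and PLTP, the phospholipid transfer protein, 1.62-fold (adjusted p = 0.00016). ABCG8, a sterol exporter, rose by 0.54 on the log2 scale (adjusted p = 0.0311). NR1H3, which encodes LXR alpha, rose by 0.31 (adjusted p = 0.046). Without DMSO replicate 1, DMSO replicate 2 or sorafenib replicate 3 neither ABCG8 (0.40 to 0.50) nor NR1H3 (0.22 to 0.32) passed, nor NR1H3 without sorafenib replicate 2. Without the intensity trend both calls were lost too (adjusted p = 0.0666 for ABCG8 and 0.0961 for NR1H3), and that of NR1H3 under median scaling (0.267), with cyclic loess (0.055) and without the filter on dim probes (0.0664). Of 6 genes tested on the value-table arrays (median log2 change 0.16), SMPDL3A alone rose. It had not passed on the signal arrays (0.07, adjusted p = 0.518), so no gene of this list passed in both sets in the main tests. ABCG8 was not tested on the value-table arrays. The changes there were 0.15 for RXRA, 0.17 for PLTP (adjusted p = 0.51, and 0.0379 with the replicate block) and 0.09 for NR1H3. The change of PLTP ran from 0.00 to 0.32 over the other settings, and was 0.01 without sorafenib replicate 3. ACAT1, ERLIN2, SMPDL3A and the receptors and transporters given above without values are named here after their values were seen. Of 3 oxysterol and bile acid enzymes tested on the signal arrays, CYP27A1, which makes an oxysterol in mitochondria, rose (0.36, adjusted p = 0.0364; 0.26 and 0.0467 on the value-table arrays). Its signal-array call was lost when any 1 of 4 arrays was left out, sorafenib replicates 2 and 3 and DMSO replicates 1 and 2 (0.26 to 0.38), under median scaling (adjusted p = 0.074) and without the intensity trend (0.0964). Its value-table call was lost without any 1 array other than DMSO replicate 3 (0.23 to 0.29), without the intensity trend (0.0531) and without the filter on dim probes (0.118).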

How the data were processed

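Total RNA of Huh7 cells was labelled with biotin and hybridised to Illumina expression beadchips, per the labels' protocols. The authors deposited signal intensity values per probe, not normalized, with a detection p-value for each, per the file headers, and a table of normalized log2 values with no stated background step or centring. Its 6 columns share 1 distribution, with a median of 7.10. Scale was read from the values.

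Background correction and quantile normalization of the intensities used neqc (offset 16), and probes with detection p under 0.01 on at least 3 of 6 arrays were kept (17115 of 47323). Value-table probes were kept above 7.40 on at least 3 arrays (17122). This level is the mean, over the signal arrays, of the lowest detected value without background correction. The sets were tested apart with limma 3.58.1 in R 4.3.3 (lmFit, eBayes with trend, two-sided, Benjamini-Hochberg over all kept probes, threshold 0.05), and the scripts were tested on simulated data. With 3 arrays a group, precision is limited by their number. A bound takes the array's detection level for undetected probes. Probes were named from the platform annotation, 30113 with 1 symbol, 8 with several and 17202 with none.

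All members were named. Every array's value was given, in both sets, for the 15 with the largest change past the threshold, and of the other lists up to 4 genes each. The kept probe with the highest mean stood for its gene. The members and lists were chosen with earlier results of these data known.

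Deviations from the group means were correlated between samples of the 2 groups. For same-numbered samples the correlations were 0.34, 0.32 and 0.38 on the signal arrays and 0.43, 0.32 and 0.67 on the value-table arrays. For differently numbered samples they were -0.35 to 0.03 and -0.52 to 0.29. Deviations within a group cancel out, so positive values for same-numbered samples pull the others down. The contrast between these ranges is thus partly fixed in advance. The main tests compared the groups without pairing. The replicate block and the counts over same-numbered samples use the replicate numbers of the labels. The labels do not say that samples of equal number were paired. Alternatives changed the background correction, scaling, filter, trend, array weights, probe rule, block and each array left out.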

Additional observations from a re-analysis of the deposited data

Results flagged for a closer look

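For INSIG1 and INSIG2 every sorafenib array lay below every DMSO array on the signal arrays and above every DMSO array on the value-table arrays. Of these differences only that of INSIG1 on the value-table arrays passed the threshold. Of all genes, 22.8% lay below in this way on the signal arrays and 21.7% above on the value-table arrays. The share that did both was not computed. INSIG1 was dimmer on the signal arrays (means 7.33 with sorafenib and 7.63 with DMSO) than on the value-table arrays (11.86 and 11.30). INSIG1 had a log2 change, sorafenib minus DMSO, of -0.30 on the signal arrays (limma adjusted p = 0.125) and 0.55 on the value-table arrays (adjusted p = 0.00481), 3 sorafenib arrays against 3 DMSO arrays in each. INSIG2 had -0.19 on the signal arrays (adjusted p = 0.0994) and 0.15 on the value-table arrays (adjusted p = 0.24). The difference between the sets was not tested for either gene.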

How the results depend on the processing

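On the signal arrays 12 of the 18 members that rose passed in every one of 16 other settings, and on the value-table arrays 3 of 9 in every one of 13. On the signal arrays the number of members that rose was 13 under median scaling and 14 to 19 with 1 array left out. It was 4 to 11 with 1 value-table array left out. Over all genes, 1767 rose and 1493 fell on the signal arrays, 971 and 834 under median scaling, and 1255 to 1680 and 892 to 1360 with 1 array left out. With the replicate block 2363 rose and 2264 fell there. On the value-table arrays 1199 rose and 866 fell, 2022 and 1640 with the replicate block, which raised the members that rose to 17, and 643 to 928 and 434 to 715 with 1 array left out. The members' median of 0.44 was 0.36 without background correction, 0.38 with normexp and 0.36 to 0.45 with 1 array left out. On the value-table arrays the median of 0.24 was 0.15 to 0.34 with 1 array left out. With the value table as source in place of the signals, 9 members rose, 866 genes fell and the median was 0.24. The replicate block ended no call of a member, and the members it added are named beside their values.

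Several estimates changed sign. On the signal arrays SREBF2 was 0.07 with array weights. With 1 signal array left out SREBF2 lay between -0.21 and 0.14, SOAT1 between -0.02 and 0.13, HSD17B7 between -0.43 and 0.06, and MYLIP between -0.03 and 0.22. With the value table as source HSD17B7 was 0.09, INSIG1 0.55, INSIG2 0.15, SREBF2 0.04, NPC1 0.05, SOAT1 -0.12 and SCARB1 -0.07. On the value-table arrays NCEH1 was 0.01 with the mean of its probes. With 1 value-table array left out, HSD17B7 lay between -0.32 and 0.36, MYLIP lay between -0.03 and 0.09, NCEH1 lay between -0.06 and 0.01, SREBF2 lay between -0.01 and 0.07, IDI1 lay between -0.01 and 0.27, NPC1 lay between 0.00 and 0.10, ZMPSTE24 lay between -0.23 and 0.02 and LCAT lay between -0.04 and 0.11. The cause was not tested. Members near the detection level, such as SREBF2, are limited by signal over background.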
